A study of Caenorhabditis elegans with 2 samples.

Results

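The genes described here are the C-type lectin genes of Caenorhabditis elegans, which carry the symbol clec- followed by a number. They were chosen by symbol from all protein-coding genes of the annotation, and 240 of 19985 genes met the rule. The 240 genes had 237 distinct symbols, because clec-15, clec-209 and clec-249 were each given to 2 genes. The family was selected on results from these peak lists, with its low share of promoter windows holding a peak already known, so the shares below describe the family and carry no test.

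DNA bound by the factor PHA-4 was immunoprecipitated from whole late embryos and sequenced (ChIP-seq), with 2 biological replicates of 1 group from separate biosamples. The animals were of strain OP37, with the mutation unc-119(ed3) on chromosome III and the transgene insertion wgIs37, which supplies pha-4 tagged with eGFP. Both sexes were pooled, the age was given as unknown, and there was no group of another genotype or treatment. Since whole animals were used, signal from pharynx, gut and all other cells was measured together, and what was pulled down was the tagged copy carried by the transgene.

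PHA-4 is a forkhead transcription factor of the FoxA type that gives cells of the foregut their identity, and in the worm it is needed to form the pharynx, the feeding organ. It also acts in the intestine. Proteins with a C-type lectin-like domain take their name from lectins that bind sugars with the help of calcium, and many of the worm proteins are secreted and lack a known ligand. Several clec genes are known as readouts of the intestinal response to bacterial infection, and many sit in tandem clusters of related copies.

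The authors deposited 1 peak list per replicate that mixes peaks with background, 1 such list for the pooled alignments, and a final list chosen by the irreproducible discovery rate (IDR). The lists held 5607 peaks for replicate 1, 1729 for replicate 2, 7768 for the pooled alignments and 9 in the final list. The signal of a peak, given here as the authors deposited it, had a median of 2.995 in replicate 1, 2.32 in replicate 2 and 2.895 in the pooled list. Replicate 2 stood apart in its q-values: its lowest was 0.351, so none of its peaks reached 0.05, whereas 5248 peaks of replicate 1 and 1330 of the pooled list did. Read depth was unknown for every library. A gene had a peak if the summit, the middle position of the peak, lay in its promoter window, which ran 1000 bp upstream and 500 bp downstream of each start of its protein-coding transcripts. Distances are given from the nearest such start.

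The sequences below are those at promoter-window summits of 5 clec genes. By window signal, these are the 3 highest in replicate 1 among those on chromosomes II to X and the highest in replicate 2. The fifth is clec-83, whose peaks overlapped between the replicates. Each line holds the 201 bases within 100 bp of a summit on the plus strand, 5′ to 3′, from the RefSeq genome sequence of WBcel235 (ce11). The first sequence, chrII:3519182-3519382, belongs to the replicate 1 peak upstream of clec-126, and the capitals mark a tRNA gene of 73 bases that holds the summit.
clec-126: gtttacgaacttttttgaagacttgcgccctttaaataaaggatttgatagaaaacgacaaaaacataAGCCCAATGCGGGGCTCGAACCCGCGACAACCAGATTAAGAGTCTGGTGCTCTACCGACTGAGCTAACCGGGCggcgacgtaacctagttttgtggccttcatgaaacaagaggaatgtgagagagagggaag
The next pair are replicate 1 summits at clec-139 (chrII:4622473-4622673) and clec-140 (chrII:4672684-4672884). Neither holds the PHA-4 consensus, and so neither has capitals. The consensus was searched on both strands as the 7 letters T, A or G, T, T, G or T, A or G, C or T.
clec-139: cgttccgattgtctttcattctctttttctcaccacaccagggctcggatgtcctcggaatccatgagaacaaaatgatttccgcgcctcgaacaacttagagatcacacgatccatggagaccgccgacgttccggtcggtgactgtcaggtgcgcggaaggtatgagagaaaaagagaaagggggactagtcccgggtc
clec-140: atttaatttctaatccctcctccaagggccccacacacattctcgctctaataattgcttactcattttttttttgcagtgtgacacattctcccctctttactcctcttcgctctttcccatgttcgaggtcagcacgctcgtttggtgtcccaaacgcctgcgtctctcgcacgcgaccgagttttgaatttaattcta
At clec-186 in replicate 2 (chrIV:12866235-12866435) and at clec-83 in replicate 1 (chrIV:2840767-2840967), no consensus was found. The capitals there mark the word AGGCA or its complement TGCCT, which was sought after the clec-83 sequence had been seen.
clec-186: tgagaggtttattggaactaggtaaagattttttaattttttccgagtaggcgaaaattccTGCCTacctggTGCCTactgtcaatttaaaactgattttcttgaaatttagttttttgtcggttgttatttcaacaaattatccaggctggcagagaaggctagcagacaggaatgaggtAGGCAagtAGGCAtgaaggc
clec-83: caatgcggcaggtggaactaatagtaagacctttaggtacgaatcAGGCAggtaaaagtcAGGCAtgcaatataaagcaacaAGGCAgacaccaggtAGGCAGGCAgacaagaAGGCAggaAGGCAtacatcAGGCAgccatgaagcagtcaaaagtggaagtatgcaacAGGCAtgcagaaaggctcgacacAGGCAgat
The replicate 2 summit at clec-83 (chrIV:2840395-2840595) did hold 1 match to the consensus, TGTTGAT, shown in capitals.
clec-83: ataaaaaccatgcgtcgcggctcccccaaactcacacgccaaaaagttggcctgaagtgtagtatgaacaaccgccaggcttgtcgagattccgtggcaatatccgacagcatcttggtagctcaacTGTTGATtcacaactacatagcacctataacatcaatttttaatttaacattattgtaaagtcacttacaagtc

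In replicate 1, fewer clec genes than other genes had a PHA-4 summit in the promoter window. There were 15 of 240, or 6.25% (3.54 to 10.1, exact Clopper-Pearson 95% interval). Of 19745 other protein-coding genes, 2846 or 14.4% did. The ratio of the shares was 0.434 (0.246 to 0.701). Replicate 2 went the other way, with 12 of 240 clec genes, or 5% (2.61 to 8.57), against 3.08% of other genes, and a ratio of 1.62 (0.848 to 2.78). The interval of that ratio held 1. In the pooled list the share was 9.17% (5.83 to 13.6), or 22 clec genes, against 17.9% of other genes, a ratio of 0.511 (0.325 to 0.756). The intervals cover the counting of genes only, and neighbouring genes that share a peak or arose by duplication are not independent draws.

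The strongest peaks were seldom at clec genes in replicate 1. Among the 1000 peaks of highest signal in replicate 1, a single clec gene, clec-126, had a summit in its window (0.417%), against 3.35% of other genes. With peaks limited to a q-value of 0.05 or less, the count in replicate 1 was 12 clec genes (5%) against 13.8% of other genes. Of the strongest 1000 pooled peaks none had its summit in a clec window, which allows a share of up to 1.25% by a floor of 3 genes (exact 95% upper limit 1.525%), against 3.39% of other genes. At a q-value of 0.05 or less the pooled list left clec-126 alone (0.417%), against 4.35% of other genes. The strongest 1000 peaks of replicate 2 reached 9 clec genes (3.75%) against 1.68% of other genes. In the final list no clec gene had a summit, with the same limits, and 7 of the other genes did (0.0355%).

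**Figure D1:**
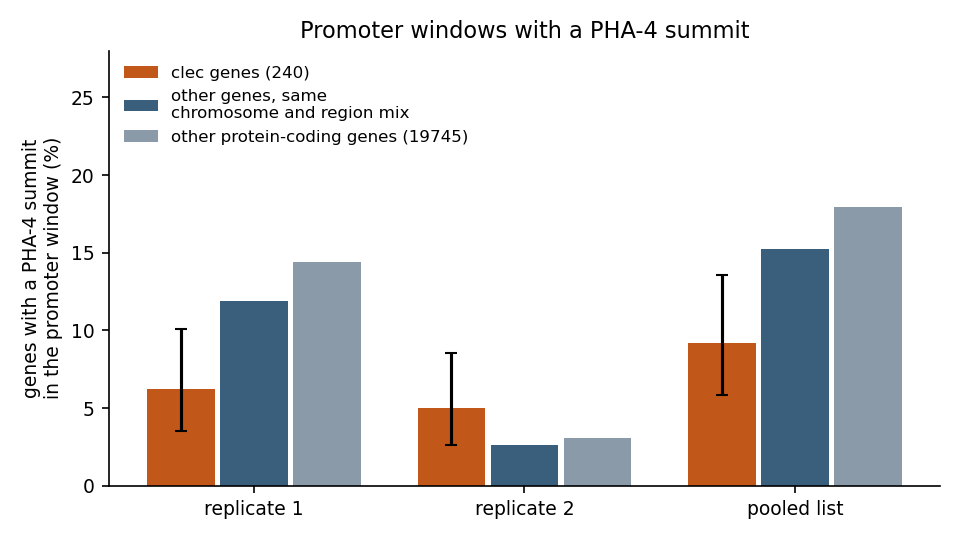
Share of genes with a PHA-4 summit in the promoter window, in percent (y axis), in each list (x axis): clec genes with the exact 95% interval, other genes weighted to the clec genes' mix of chromosomes and regions, and all other protein-coding genes. The clec bars stand at 6.25%, 5% and 9.17%, below both comparison bars in replicate 1 and in the pooled list and above them in replicate 2.

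The 36 clec genes with a summit in any list were 15% of the family, against 22.1% of other genes, and 204 had none. Of the 36, 24 were in exactly 1 list, 11 in a pair of lists and 1, clec-83, in all 3. Between the replicates 2 genes were common, clec-83 and clec-240. They made up 13.3% of the 15 clec genes of replicate 1 and 16.7% of the 12 of replicate 2. Among other genes the 126 common to both replicates were 4.43% of those in replicate 1 and 20.7% of those in replicate 2. At clec-83 the replicate summits lay 372 bp apart and the peaks overlapped, while at clec-240 they lay 1129 bp apart and the peaks did not. So clec-83 was the only one of the 240 whose promoter-window peaks overlapped between the replicates. Overlap of the peaks was not counted for the 126 other genes, so whether this is few or usual is unknown.

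The pooled list shared 8 clec genes with replicate 1, which were clec-25, clec-83, clec-113, clec-114, clec-126, clec-139, clec-157 and clec-224. These were 53.3% of the replicate 1 members and 36.4% of the pooled members, whereas among other genes the shares were 84.4% and 67.9%. With replicate 2 the pooled list shared 4 clec genes, clec-10, clec-80, clec-83 and clec-186, which were 33.3% of the replicate 2 members and 18.2% of the pooled members, against 35.5% and 6.10% among other genes. The 22 pooled members rested on 23 distinct peaks, of which 8 overlapped a peak of replicate 1, 4 a peak of replicate 2 and 12 neither, with the clec-83 peak counted under both replicates. Overlap with neither was thus found for 52.2% of the pooled clec peaks, against 32.3% of the pooled peaks in other genes' windows and 38.04% of all pooled peaks. The pooled list is made from the same libraries, so its overlap with them is no replication.

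Peaks at clec genes were weak within replicate 1. The strongest peak in each clec window had a median signal of 2.44 (range 2.06 to 5.86), against 3.35 at other genes with a summit, and the median ranks were 4279 and 2304.5 of 5607. In replicate 2 the medians were 2.48 at clec genes (2.05 to 3.01) and 2.30 at other genes, with median ranks of 667.5 and 919 of 1729. In the pooled list they were 2.75 at clec genes (2.14 to 4.76) and 3.13 at other genes, with median ranks of 4300 and 3265.5 of 7768. Ranks are used within a list only, because how signal was scaled between lists is not stated.

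The member with the strongest promoter-window peak in replicate 1 was clec-126, on chromosome II. Its peak (chrII:3519110-3519453) had a signal of 5.86, rank 784 and a q-value of 0.00574, with the summit 212 bp upstream of the start. The pooled list had its summit at the same base, with a signal of 4.76, rank 1316 and a q-value of 0.0490. The replicate 1 peak overlapped 2 tRNA genes on the minus strand, all of one of 73 bases at chrII:3519250-3519322, which held the summit, and part of one of 72 bases at chrII:3519086-3519157. Transfer RNA genes are short units transcribed by RNA polymerase III. Of the clec window summits in replicate 1, 1 of 15 belonged to a peak that overlapped a tRNA gene, against 1.13% at other genes. Replicate 2 had no summit in the clec-126 window, though it had one in the gene body at rank 628.

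The next in replicate 1 was clec-139, whose peak (chrII:4622401-4622744) had a signal of 3.45, rank 2173 and a q-value of 0.00391. Its summit lay 823 bp upstream of the start and inside pqn-35, a gene of the class with glutamine- and asparagine-rich stretches. The pooled list had the same summit at a signal of 2.93, rank 3768 and a q-value of 0.392. For clec-140 the peak (chrII:4672612-4672955) had a signal of 2.78, rank 3419 and a q-value of 0.00572, with the summit 276 bp upstream. That summit also fell in the windows of T05A7.6 and hmg-11. Both summit sequences, printed above, lacked the consensus, and both lay on the left arm of chromosome II.

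On chromosome I, clec-114 had a replicate 1 peak of signal 3.16, rank 2626 and a q-value of 0.00362 with the summit 88 bp downstream of the start, in a window shared with C49A1.5. A replicate 1 summit 494 bp upstream of clec-53, with a signal of 3.04, rank 2755 and a q-value of 0.00418, was nearer to the start of uba-5, which encodes an activating enzyme for a ubiquitin-like modifier. For clec-113 the signal was 2.54, the rank 3831 and the q-value 0.0103, 108 bp upstream. For clec-87 they were 2.27, 4576 and 0.0234, 372 bp downstream, in a window shared with rsa-1, a regulator of spindle assembly. The 4 chromosome I members of replicate 1 thus had ranks from 2626 to 4576, and those of clec-114 and clec-113 returned at the same bases in the pooled list, with signals of 2.70 and 2.18, ranks 4413 and 6622 and q-values of 0.494 and 0.792.

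Of the remaining replicate 1 members, clec-19 had a signal of 2.45, rank 4275 and a q-value of 0.0135 at 443 bp downstream, and its summit surroundings held 5 matches to the consensus. For clec-25, in a large cluster on chromosome V, the summit lay 27 bp upstream of the start with a signal of 2.44, rank 4279 and a q-value of 0.0137, and the pooled list placed it 13 bp downstream with 3.58, rank 2462 and 0.196. The clec-157 summit, with a signal of 2.27, rank 4620 and a q-value of 0.0234, lay 279 bp downstream of the start and also in the window of fkh-5, itself a forkhead gene. The pooled list had it at the same base with 2.90, rank 3835 and 0.407. At clec-178 the summit lay 14 bp upstream of the clec start with a signal of 2.06 and rank 5512, and it sat inside skn-1, which encodes a transcription factor of the stress response. The summits of clec-212 and clec-224, both with a signal of 2.06, lay 873 and 880 bp upstream of those genes, and the one of clec-224 sat inside elpc-3, which encodes a subunit of the Elongator complex. For clec-224 the replicate 1 rank was 5529 and the q-value 0.0541, and the pooled summit at the same base had a signal of 3.22, rank 3140 and a q-value of 0.285. In replicate 1, 8 of the 15 clec genes with a summit (53.3%) shared it with the window of another gene, against 36.9% of other genes with a summit, and in 13 of 15 a clec start was the nearest start. The order was the other way in replicate 2, where 25% of clec genes with a summit shared it against 28.95%. It was also the other way in the pooled list, at 27.3% against 34.6%.

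In replicate 2 the strongest peak in a clec promoter window was at clec-186 (chrIV:12866040-12866629), with a signal of 3.01, rank 229 and a q-value of 0.400, 226 bp downstream of the start. The pooled list had a summit 174 bp downstream of the same start, at rank 6496 with a signal of 2.22 and a q-value of 0.767. No clec-186 summit was called in the window in replicate 1, so the highest member of each replicate had no window summit in the other. Next in replicate 2 were clec-167 and clec-80, both with a signal of 2.62, at ranks 492 and 525, at 216 and 369 bp downstream and with q-values of 0.484 and 0.436. For clec-80 the pooled summit lay elsewhere, 614 bp upstream, with a signal of 4.37, rank 1598 and a q-value of 0.0767, the second highest clec signal of that list.

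At clec-83 replicate 1 gave a signal of 2.32, rank 4425 and a q-value of 0.0205, 182 bp upstream of the start, and replicate 2 a signal of 2.54, rank 601 and a q-value of 0.485, 190 bp downstream. The pooled summit lay between them, 118 bp upstream, with a signal of 3.16, rank 3211 and a q-value of 0.297. All 3 summits lay within the annotated clec-83 gene, because a longer transcript of it starts farther upstream. The replicate 1 summit of clec-240 lay 132 bp downstream of the start with a signal of 2.20, rank 5090 and a q-value of 0.0314, in the window of the claudin-like gene clc-12 as well. In replicate 2 its summit lay 997 bp upstream, inside clc-12, with a signal of 2.62, rank 537 and a q-value of 0.448, which put it 3 bp within the edge of the window.

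The other replicate 2 members were clec-177, with its summit on the start itself, clec-238, clec-164, clec-10, clec-85, clec-74 and clec-73, with signals of 2.05 to 2.51. For clec-177 the signal was 2.51, the rank 632 and the q-value 0.500, and for clec-238, 412 bp upstream, they were 2.45, 703 and 0.559. The summit of clec-164 lay 58 bp upstream with 2.31, 912 and 0.696, and that of clec-85 468 bp upstream with 2.15, 1229 and 0.760. The genes clec-73 and clec-74 point away from each other and had 1 summit between them, and clec-10 had 2 summits, 528 bp upstream and 357 bp downstream of its start, with signals of 2.24 and 2.17, ranks 1000 and 1168 and q-values of 0.743 and 0.737. Again clec-10 had 2 in the pooled list, 571 bp upstream and 454 bp downstream, with signals of 2.73 and 3.22, ranks 4348 and 3147 and q-values of 0.480 and 0.286. All replicate 2 q-values of summits in clec promoter windows lay between 0.400 and 0.860.

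Members seen in the pooled list alone were clec-89, clec-202, clec-22, clec-31, clec-34, clec-153, clec-266, clec-41, clec-147, clec-132 and clec-102, with signals of 2.14 to 3.10. The highest were clec-89, 721 bp upstream with a signal of 3.10, rank 3303 and a q-value of 0.327, and clec-202, 73 bp downstream with 2.78, 4256 and 0.460. The neighbours clec-22 and clec-31 shared 2 summits. Several summits lay inside another gene: the one of clec-89 in unc-89, which encodes a giant muscle protein, the one of clec-153 in pfas-1, an enzyme of purine synthesis, and the one of clec-34 in its cluster neighbour clec-38. On the X chromosome, clec-266 was the one of 3 members with a summit, and it lay inside the potassium channel gene kqt-1 as well.

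**Figure D2:**
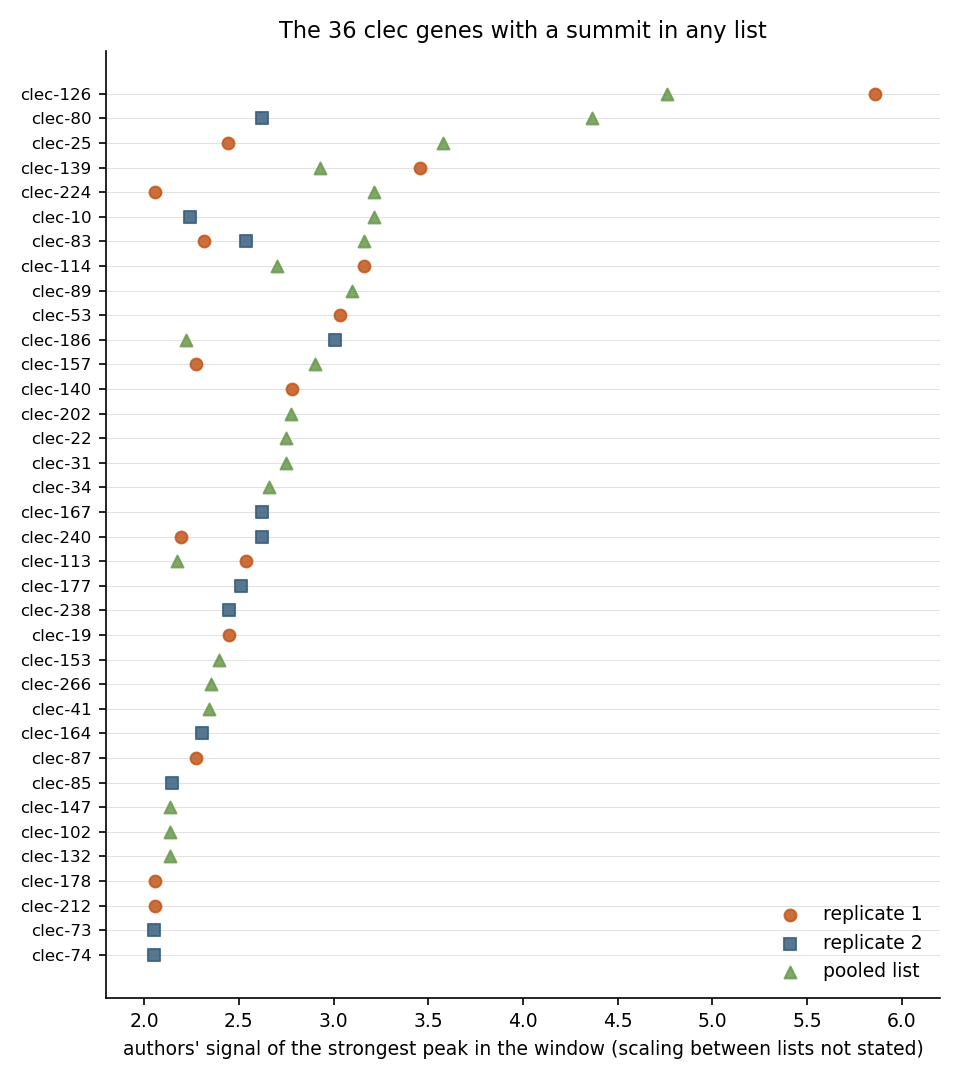
Authors' signal of the strongest peak in the promoter window (x axis, own scale of each list) for each of the 36 clec genes with a summit (rows, ordered by their highest signal), with circles for replicate 1, squares for replicate 2 and triangles for the pooled list. The row of clec-126 reaches 5.86 in replicate 1, and clec-83 is the row with all 3 symbols.

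Some summits lay close to the window's edge. Just inside, clec-240 lay 3 bp from the edge in replicate 2, clec-10, which had another pooled summit deeper in its window, lay 46 bp from it in the pooled list, and clec-19 lay 57 bp from it in replicate 1. The pooled summit nearest outside belonged to clec-161, 1024 bp upstream, with a signal of 3.88 and a q-value of 0.135. After it came clec-166 at 129 bp beyond the edge, clec-89 at 144 bp, which had another pooled summit inside, clec-119 at 163 bp and clec-149 at 201 bp. In replicate 2 clec-17 lay 36 bp beyond the edge, and in replicate 1 clec-89, clec-119 and, 464 bp beyond with rank 333 and a signal of 8.32, clec-196 were among the nearest.

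The peak of replicate 1 summits that stood just upstream of other genes was low at clec genes. In the 500 bp upstream of the start, replicate 1 had 2.5 summits per 100 clec genes against 7.63 per 100 other nuclear genes, and the pooled list had 2.5 against 8.96. In the first 500 bp downstream the values were closer, at 2.08 against 2.64 in replicate 1 and 3.75 against 3.78 in the pooled list. Replicate 2 had 1.67 summits per 100 clec genes in both bins, against 0.856 and 0.938 per 100 other genes. In the pooled list the highest clec bin lay 3000 to 3500 bp downstream, with 5.42 per 100 clec genes against 3.24 per 100 other genes, a feature noticed in the plotted values. That clec bin rests on a count of 13. A summit was counted for each gene in reach, so neighbouring clec genes could count the same one.

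**Figure D3:**
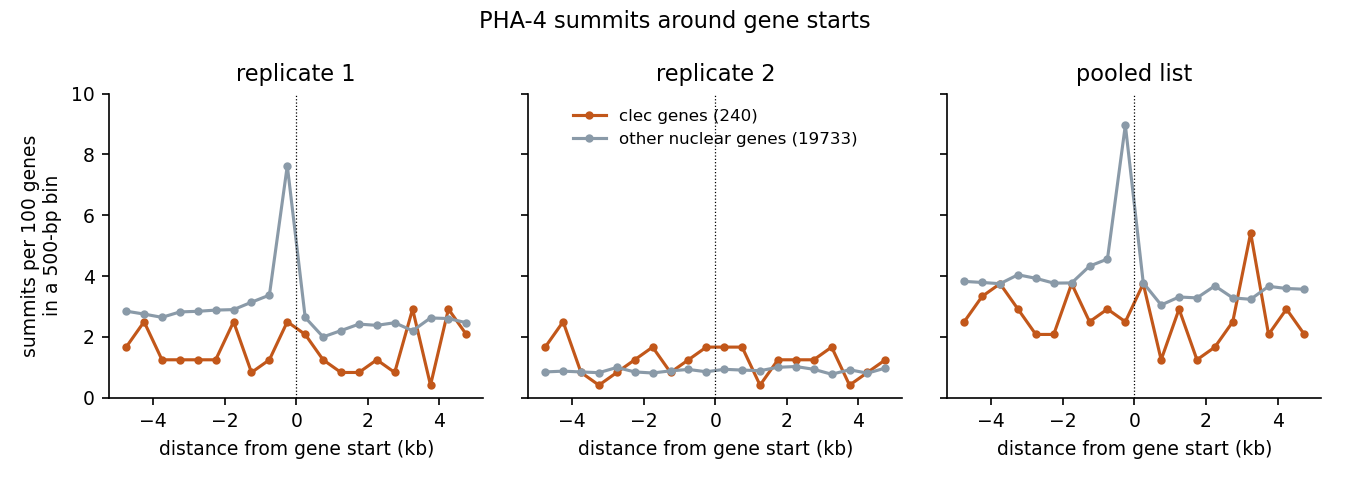
Summits per 100 genes in 500-bp bins (y axis) by distance from the gene start in kb (x axis, upstream negative), for the 240 clec genes and 19733 other nuclear protein-coding genes. The other genes' line peaks just upstream of the start at 7.63 in replicate 1 and 8.96 in the pooled list, where the clec line stands at 2.5.

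The wider surroundings of clec genes also held fewer summits in replicate 1. Their median distance to the nearest summit was 10815.5 bp against 6726 bp for other genes, and 53.8% of clec genes against 38.6% of other genes had none within 10 kb. The mean number within 10 kb was 0.642 at clec genes against 1.12 at other genes, and against 0.919 once other genes were weighted to the same chromosomes and regions. For the pooled list these means were 1.04, 1.55 and 1.29. Replicate 2 went the other way, with a mean of 0.421 at clec genes against 0.356 at other genes and 0.323 after weighting, and medians of 18805.5 and 20466 bp. The weighted ratios were 0.699 in replicate 1, 1.30 in replicate 2 and 0.805 in the pooled list.

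Clec genes had fewer annotated starts, which narrows what can be hit. More than 1 start was annotated for 9.58% of clec genes against 26.5% of other genes, and their windows spanned 1555.8 bp on average against 1795.2 bp. Per Mb of window, replicate 1 had 40.2 summits at clec genes against 89.1 at other genes. The pooled list had 66.96 against 114.8, and replicate 2 had 34.8 against 18.1. The direction in each list was thus the same per window length as per gene.

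Summits in gene bodies were counted outside the gene's own promoter window. One could still lie in a neighbour's window, as the pooled clec-38 summit lay in that of clec-34. In replicate 1 such summits were also fewer at clec genes, where 7 genes (2.92%) had one against 7.39% of other genes. Pooled, it was 9 genes (3.75%) against 11.0%, and in replicate 2 it was 8 (3.33%) against 4.13%. Per Mb of gene, replicate 1 had 13.7 such summits at clec genes against 28.8 at other genes and the pooled list 19.6 against 45.1, whereas replicate 2 had 15.7 against 14.1, so its direction turned round with gene length. The highest of them in replicate 2 was in an intron of clec-151, 1570 bp downstream of the start (chrIII:4629752-4630341), with a signal of 5.56, rank 5 and a q-value of 0.351, the lowest of that list. Neither replicate 1 nor the pooled list had a summit in the body or the window of clec-151. In replicate 1 the highest body summit was in a coding exon of clec-89, with a signal of 4.27 and rank 1484. Inside the windows, 9 of the 15 clec summits of replicate 1 (60%) lay upstream of the gene and 5 (33.3%) in coding exons, against 69.6% and 8.77% at other genes. In replicate 2 coding exons held 4 of 13 (30.8%) against 19.3%. In the pooled list they held 3 of 25 (12%) against 11.1%, and introns held 8 (32%) against 16.5%.

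Clec genes are concentrated on chromosome arms, taken here as the outer parts when a chromosome is cut into 3 equal lengths. The arms held 84.2% of clec genes against 61.9% of other genes, and the right arms held 52.1% against 30.7%. Other genes had summits less often on arms than in centres, with 13.0% against 16.6% in replicate 1. Weighting other genes to the clec genes' chromosomes and regions gave a share of 11.9% for replicate 1, so that the ratio became 0.524 (0.297 to 0.847). For the pooled list the weighted share was 15.2% and the ratio 0.603 (0.384 to 0.891), and for replicate 2 it was 2.63% and 1.901 (0.992 to 3.26). The lower share in replicate 1 and in the pooled list thus held after the weighting, at a ratio nearer to 1.

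By region, replicate 1 had summits at 7 of 77 clec genes on left arms, or 9.09% (3.73 to 17.8), against 12.8% of other genes there. In centres it was 3 of 38, or 7.89%, against 16.6%, and on right arms 5 of 125, or 4% (1.31 to 9.09), against 13.2%. In replicate 2 the left arms held 9 of 77 clec genes, or 11.7% (5.49 to 21.0), against 2.63% of other genes. Centres held 0 of 38 in replicate 2 (exact upper limit 9.25%) against 3.61% of other genes, and right arms 3 of 125, or 2.4%, against 2.74%. The pooled shares were 9.09%, 13.2% and 8% on left arms, centres and right arms, against 16.3%, 20.2% and 16.6%. Each of the 3 regions therefore had a lower clec share than other genes in replicate 1 and in the pooled list, while the excess of replicate 2 lay on left arms.

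Chromosome IV carried most of the replicate 2 members. There 9 of 53 clec genes (17.0%) had a summit in replicate 2, against 3.10% of other genes, and 8 of these lay among the 31 on the left arm (25.8% against 2.43%). Without the chromosome, 3 of 187 clec genes (1.60%) had a replicate 2 summit, against 3.08%, so the direction turned round. On chromosome IV in replicate 1 the share was 3.77% against 14.3% of other genes. The other chromosomes with more than 10 clec genes also had lower clec shares in replicate 1, at 11.1% against 17.3% on I, 8.33% against 13.8% on II, 7.14% against 18.4% on III and 4.65% against 9.84% on V. The left arm of chromosome II, where 4 of 29 clec genes (13.8%) had a replicate 1 summit against 8.31% of other genes, was one place where that order was not kept.

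**Figure D4:**
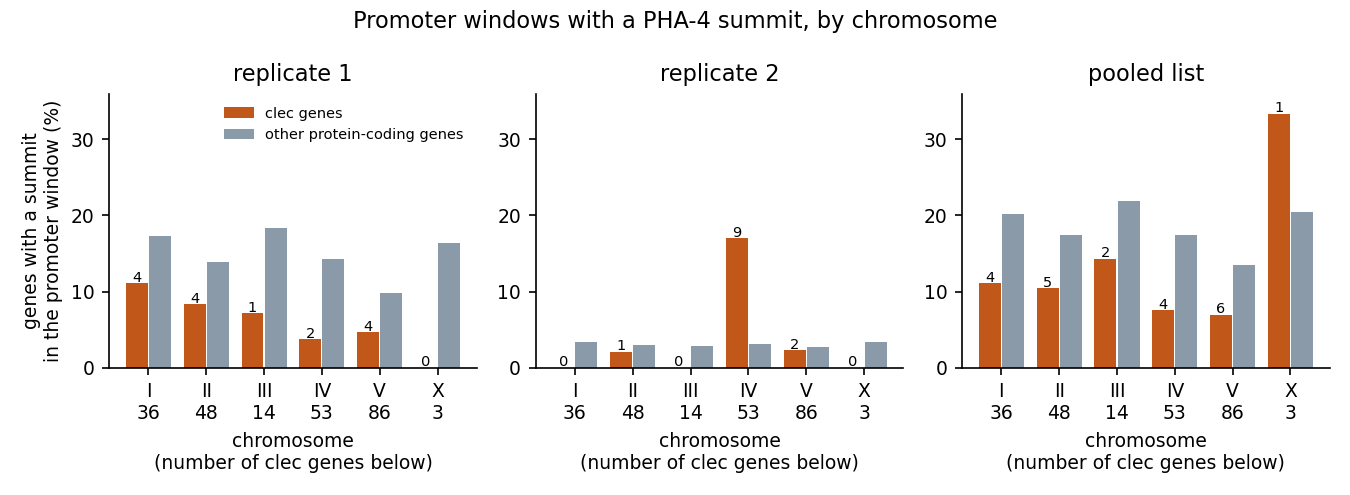
Share of genes with a summit in the promoter window, in percent (y axis), by chromosome (x axis, with the number of clec genes below), for clec genes and for other protein-coding genes, with the number of clec genes with a summit above each clec bar. In replicate 2 the chromosome IV bar stands at 17.0% for clec genes against 3.10% for other genes; the tall pooled bar on X is 1 gene of 3.

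Members of clusters were compared with members that stood alone. With another clec start within 10 kb there were 148 genes, of which 6 (4.05%, 1.50 to 8.62) had a replicate 1 summit, and of the 92 isolated genes 9 did (9.78%, 4.57 to 17.8). In replicate 2 the counts were 9 of the clustered (6.08%) and 3 of the isolated genes (3.26%), and in the pooled list 13 (8.78%) and 9 (9.78%). The clustered genes formed 45 runs of 2 or more. The largest run, of 13 genes on chromosome V, had 1 summit gene in replicate 1, clec-25, none in replicate 2 and 3 in the pooled list. The run of clec-82, clec-83, clec-84 and clec-85 on chromosome IV had 1, 2 and 1 members with a summit in these lists.

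The PHA-4 consensus was about as frequent in clec promoters as elsewhere. In the 300 bases from 250 before to 50 after the start, 67.5% of clec genes had it against 66.8% of other genes, with means of 1.18 sites in both. Base composition was also alike, at 34.7% G and C against 34.8%. Within 100 bp of the replicate 1 summits, 5 of 15 (33.3%) clec summits had the consensus against 58.7% of summits at other genes. In replicate 2 it was 7 of 12 (58.3%) against 49.9%, and in the pooled list 12 of 23 (52.2%) against 56.3%. Among genes with the consensus in their promoter, 5.56% of clec genes and 15.1% of other genes had a replicate 1 summit, and without it 7.69% and 12.8%. A match is a description of the letters and says nothing of occupancy.

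A repeated word was counted at the summits after it had been seen at clec-83. Within 100 bp of the clec-83 summits of replicate 1 and of the pooled list, the word AGGCA occurred 10 times on either strand, as printed above. The pooled summit of clec-80 had 5, and clec-80 and clec-186 on chromosome IV in replicate 2 and clec-212 on chromosome V in replicate 1 had 4 each. Summits with 5 or more were 1 of 15 at clec genes in replicate 1 against 0.0388% at other genes. They were 2 of 23 against 0.0593% in the pooled list, and 0 of 12 against 0.555% in replicate 2. The 1 was clec-83 itself, where the word was found, and the 2 were clec-83 and clec-80. The contrast in those lists thus follows in part from the choice of word. Whether reads from such repeats were placed uniquely was not tested.

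The known response genes of infection were set beside these members. The list held 13 clec genes linked to infection, clec-4, clec-7, clec-39, clec-41, clec-42, clec-49, clec-60, clec-61, clec-66, clec-67, clec-70, clec-85 and clec-86. None had a summit in replicate 1 (exact 95% upper limit 24.7%), clec-85 had one in replicate 2 and clec-41 had one in the pooled list. Other genes of the same chromosomes and regions had summits at 13.0%, 2.69% and 16.7% in these lists, so the counts of 0, 1 and 1 of 13 are near this background. A further list held 10 genes of the PMK-1 kinase pathway and of other factors set beside it. They were tir-1, nsy-1, sek-1, pmk-1, vhp-1, atf-7, zip-2, skn-1, elt-2 and daf-16. Of these, 5 had a replicate 1 summit, which were daf-16, skn-1, tir-1, vhp-1 and zip-2. The genes nsy-1, sek-1 and pmk-1 had no summit in any list. None of the 10 had one in replicate 2, and in the pooled list atf-7, elt-2, tir-1, vhp-1 and zip-2 did, beside shares of 15.9%, 2.70% and 19.2% for other genes of the same chromosomes and regions in the 3 lists. The 5 genes with a summit in replicate 1, and the 5 in the pooled list, were each 50% of the 10 (18.7 to 81.3). This interval lay above the 15.9% of replicate 1 and held the 19.2% of the pooled list. The 10 lys genes for lysozymes had 1 in replicate 1, 0 in replicate 2 and 2 in the pooled list, and the 31 spp genes for saposin-like proteins had 2, 1 and 5. Their weighted backgrounds were 14.2%, 3.39% and 18.0% for lys and 14.8%, 3.24% and 18.3% for spp genes. The spp share in replicate 1, 6.45% (0.791 to 21.4), was below its background, though the interval held it. The other spp counts and the lys counts lie near theirs. The 12 lec genes, which encode galectins, another kind of lectin, had 5, 1 and 6, beside backgrounds of 15.6%, 2.97% and 19.0%. As shares these were 41.7% (15.2 to 72.3), 8.33% (0.211 to 38.5) and 50% (21.1 to 78.9). The pooled interval lay above its background, and the replicate intervals held theirs. These lists are small, and differences between them were not tested.

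Other large families gave shares on both sides of their own weighted comparison. The col genes, 156 in number, which encode cuticle collagens, had replicate 1 summits at 3.21% against 15.1% of other genes of the same chromosomes and regions. For the 170 fbxa genes of F-box proteins, 97.6% of which lay on arms, the values were 6.47% against 12.7%. For the 269 nhr genes of nuclear hormone receptors they were 15.99% against 11.5%. A low share in replicate 1 was thus found for col and fbxa genes as well as for clec genes. In replicate 2 the col, fbxa and nhr shares were 1.92%, 1.76% and 2.97%, against 3.23%, 2.02% and 2.73%.

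**Figure D5:**
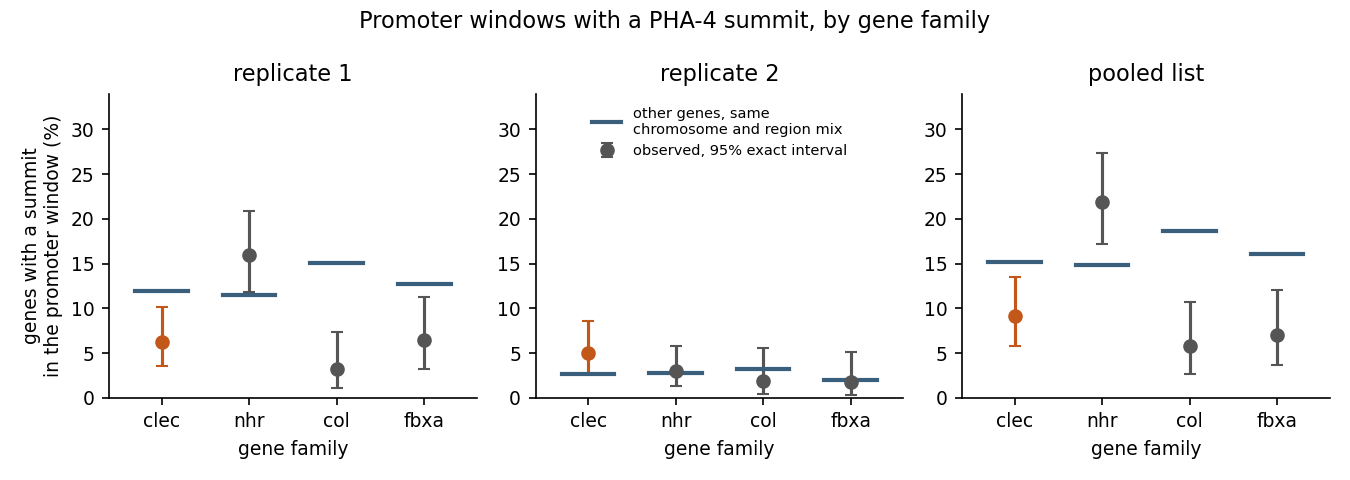
Share of genes with a summit in the promoter window, in percent (y axis), for clec, nhr, col and fbxa genes (x axis), with points for the observed share, bars for the exact 95% interval and lines for other genes of the same chromosomes and regions. In replicate 1 the clec, col and fbxa points lie under their lines and the nhr point lies above.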

How the data were processed

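Per the labels, PHA-4 was profiled by ChIP-seq in 2 replicates of 1 group. The authors deposited peak lists in ce10 and ce11; per the file listing deposited with the samples, the ce11 replicate and pooled lists used 2 control alignments. The IDR cutoff, aligner and caller were not given in the sources used here. In the files, a deposited peak carries the authors' signal value, a −log10 q-value and a summit offset in bp. The files give no read counts, so depth is unknown.

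Genes and starts came from the Ensembl release 115 annotation of WBcel235, the build of ce11, and coordinates are 1-based. The ce10 lists were not used here. No column was left unmapped. Signal served to rank peaks within a list. Shares carry exact 95% intervals and no test, since the members, lists and windows were chosen with earlier results of these data known. Shares of other genes were weighted to the clec genes' chromosomes and regions (left, middle and right, of equal length). Named were all clec genes with a summit in a window, with full values for those in 2 or more lists and the 10 of highest signal per list, and the 5 nearest outside it in the pooled list. The AGGCA word, tRNA genes, host genes of summits and the profile were chosen after their values were seen. Python 3.11.15, numpy 2.4.6, scipy 1.17.1 and matplotlib 3.10.9 were used, and counting was checked on simulated data. Alternatives were the peaks used, window reach, assignment rule, regions and the left-out replicate or chromosome.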

Additional observations from a re-analysis of the deposited data

How the results depend on the processing

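The 6 ratios of shares were recomputed under 56 alternatives. In 46 the direction was kept and the ratio stayed within the 95% interval, in 6 it moved beyond it and in 4 it turned round. With the strongest 1000 peaks the replicate 1 ratio was 0.124 unweighted and 0.154 weighted to chromosomes and regions, and the pooled ratio was 0 in both forms. With a q-value of 0.05 or less the pooled ratio was 0.0958 unweighted and 0.121 weighted; replicate 2 has no value there because none of its peaks passed. Leaving out each replicate in turn leaves the other replicate's own list, since no pooled list was called again, so these 4 of the 56 alternatives repeat the single-replicate ratios and are no separate check. Over them the pooled ratio ranged from 0.434 to 1.62 unweighted and from 0.524 to 1.901 weighted, and it turned round without replicate 1. Without chromosome IV, an alternative added after the data had been seen, the replicate 2 ratio turned round to 0.522 unweighted and 0.626 weighted. The cause was not tested. No paired analysis was possible because there was 1 group. What depth limits is unknown, because the files give no read counts.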

Other observations

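In the immune families set beside the clec genes, the members with a summit are named here. The families were chosen by symbol and none was tested. Their counts and the shares of other genes of the same chromosomes and regions are given above. Of the lysozyme genes, lys-1 had a summit in replicate 1 and in the pooled list, and lys-3 in the pooled list. Of the saposin-like genes, spp-9 and spp-14 had one in replicate 1, spp-9 in replicate 2, and spp-11, spp-14, spp-16, spp-26 and spp-27 in the pooled list. Of the galectin genes, lec-1, lec-6, lec-7, lec-10 and lec-12 had one in replicate 1, lec-7 in replicate 2, and these and lec-4 in the pooled list. So spp-9 and lec-7 were the members of these families with a summit in both replicates, and spp-9 had none in the pooled list. Of the 19745 protein-coding genes outside the clec family, 126 had a summit in both replicates. The lowest q-value of any replicate 2 peak was 0.351. Whether the replicate peaks overlapped at spp-9 or at lec-7 was not tested.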
